A study of Locusta migratoria with 12 samples.

Results

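The comparison concerns the fat body of adult female migratory locusts (Locusta migratoria) between 2 and 4 days after eclosion, the moult to the adult. Its members are 6 of the 12 small RNA libraries of the study, 3 from day 2 and 3 from day 4, chosen by the age in their labels. All are libraries of total RNA from female fat body with age as the only stated difference, and the labels leave out the strain, the rearing, and whether a library holds 1 animal or a pool. The 3 day 6 libraries entered the fit to help estimate the spread, and no day 0 library was used. Each age has 3 separately labelled samples, with nothing to say that they are different animals. The p-values therefore rest on variation among libraries that may be technical.

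The fat body is the insect counterpart of liver and adipose tissue, storing lipid and glycogen and secreting yolk proteins for the eggs. In female locusts the first days of adult life precede yolk production, and juvenile hormone, acting through its receptor Met and the transcription factor Kr-h1, brings the fat body to that state. A miRNA is a short RNA cut from a hairpin precursor, which can leave a mature product from its 5p or its 3p arm, and it lowers the output of mRNAs that pair with its seed.

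The deposited counts are given per mature miRNA name of many species, and reads that match several names were counted under each. The 910 rows with an arthropod name and at least 90 counts over the 9 libraries of days 2, 4 and 6 were therefore joined into 63 miRNAs, of which 12 include a row named in the locust. All 63 passed the filter on low counts and were tested. Counts over these miRNAs ranged from 692899 to 2279195 per library at days 2 and 4, and intervals on such counts would cover counting error only. The median correlation of a library with the others, on the log2 scale across miRNAs, lay between 0.96 and 0.98 for all 9, with the lowest value in day 6 replicate 3. No agreed miRNA marks the fat body, so the tissue label could be checked only against miRNAs of other tissues, described further on. In whole tissue, fewer cells of a type and less RNA per cell cannot be told apart.

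A single miRNA passed the test between day 2 and day 4. miR-184-3p, an abundant miRNA with a role in female germline development in flies and in locust moulting, stood at 46910, 57619 and 59340 CPM (read counts made comparable between libraries by TMM scaling) in the day 2 libraries and at 34678, 35008 and 32389 CPM in those of day 4. The 3 day 4 values lay close together and below all of day 2. Its mean fell from 54623 ± 6735 to 34025 ± 1426 CPM (SD, n = 3 each), a log2 change of -0.68 (SE 0.11; edgeR's quasi-likelihood test, Benjamini-Hochberg adjusted p = 0.00729), and it ran from 31228 to 33984 CPM at day 6. The call ended without day 2 replicate 3 (log2 change -0.59, adjusted p = 0.0652) or day 4 replicate 3 (-0.65, adjusted p = 0.0524).

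In all, 1 of 63 miRNAs was lower at day 4, or 1.59%, and 0 were higher, at an adjusted p under 0.05 in edgeR. Without adjustment, 4 were higher and 8 lower at a p under 0.05. In edgeR, miR-315-5p, miR-8-3p, miR-750 and miR-1-3p were given the same adjusted p, 0.0521, by the adjustment over ranks. Their unadjusted edgeR p ran from 0.00177 to 0.00413. Scaling by total counts gave 1 higher and 5 lower (1.59% and 7.94%). DESeq2 called 3 higher and 4 lower (4.76% and 6.35%), limma-voom 2 and 3 (3.17% and 4.76%). A fit of the 6 compared libraries alone called 3 higher, miR-8-3p, miR-750 and miR-995-3p, and 4 lower, miR-184-3p, miR-315-5p, miR-1-3p and miR-31a-5p (4.76% and 6.35%). Leaving out day 6 replicate 3, which differed from the other day 6 libraries in several miRNAs, gave 4 higher and 4 lower (6.35% each). That library held miR-33-5p at 60.1 CPM, against at least 277 CPM in each library of days 2 and 4, and miR-14-3p at 79971 CPM, against at most 28741 CPM.

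Libraries of the 2 ages did not overlap for 9 miRNAs with day 4 above (14.3% of 63) and 13 with day 4 below (20.6%), 22 in all (34.9%). The median log2 change of all 63 was -0.03, and 42 of them had a log2 change under 0.5 in size. When libraries were scaled by total counts the median was -0.15, so values within that distance of 0 have no settled direction.

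**Figure D1:**
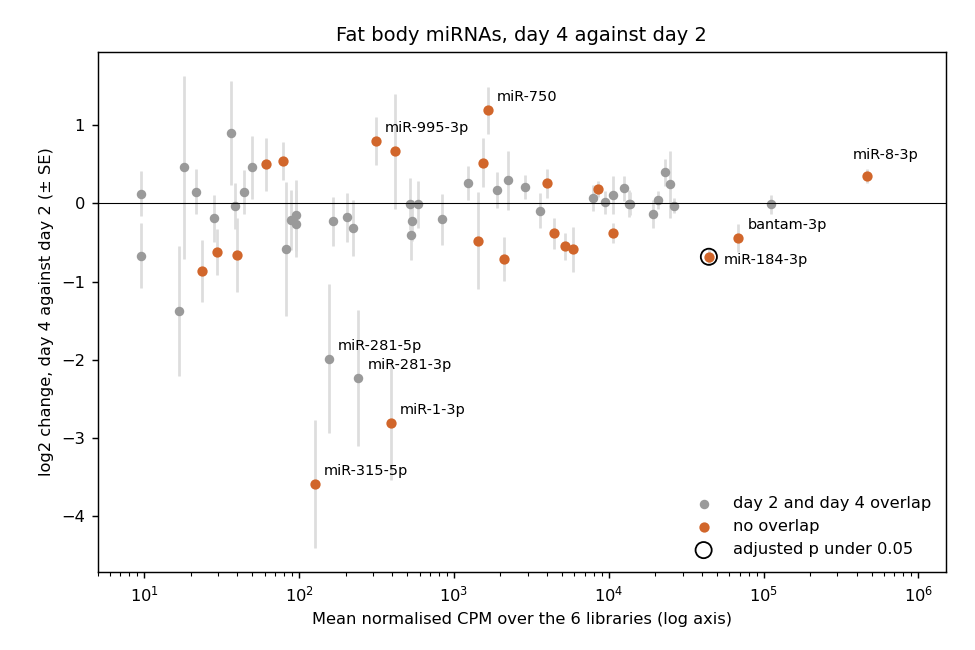
The log2 change of each of the 63 miRNAs between day 2 and day 4 (vertical axis, bars are SE) is plotted against its mean normalised CPM over the 6 compared libraries (horizontal log axis). Orange points are miRNAs whose day 2 and day 4 libraries do not overlap, and the ring marks miR-184-3p, which passed the test; miR-315-5p and miR-1-3p have the largest negative values and miR-750 the largest positive value.

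miR-8, a regulator of insulin signalling and growth in the fly fat body, supplied the most abundant miRNA. miR-8-3p stood at 462982, 376775 and 385098 CPM at day 2 and at 541771, 495184 and 530055 CPM at day 4. All day 4 libraries were above all day 2 libraries, and day 6 ran higher again, from 658720 to 704849 CPM. Its log2 change was 0.36 (SE 0.09), just outside the threshold in edgeR (adjusted p = 0.0521) and inside it in the fit of the 6 libraries alone (0.38, adjusted p = 0.0331). It was called in 9 of 10 other ways of processing, not with all species joined (edgeR adjusted p = 0.221). Leaving out 1 library gave a call in only 2 of 9 fits, and edgeR adjusted p reached 0.242 without day 2 replicate 3. As a share of a library's counts, miR-8-3p held 45.4% ± 2.34 at day 2 and 53.6% ± 2.04 at day 4 (SD, n = 3 each), a difference of 8.23 percentage points (two-sided exact permutation test, p = 0.1, the smallest that 3 against 3 allows).

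The other arm of the hairpin, miR-8-5p, stood at 25783, 17578 and 16639 CPM at day 2 and at 29021, 24813 and 25429 CPM at day 4. Day 2 replicate 1 lay within the day 4 range and the other day 2 libraries below it. The log2 change was 0.40 (SE 0.17; edgeR adjusted p = 0.237), and 0.63 (adjusted p = 0.0201) without day 2 replicate 1, where the test was passed.

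miR-750, an arthropod miRNA found beside miR-1175 in several insects, had the largest positive value. It stood at 821, 779 and 1412 CPM at day 2 and at 2164, 2487 and 2236 CPM at day 4, with a gap between the ages and day 2 replicate 3 nearest to day 4. The log2 change was 1.19 (SE 0.30; edgeR adjusted p = 0.0521), or 1.21 (adjusted p = 0.0303) in the fit of the 6 libraries alone. Leaving out 1 library gave a call in 3 of 9 fits. These were without day 2 replicate 3 (1.55, adjusted p = 0.0265) and without replicate 1 (1.22, adjusted p = 0.0413) or replicate 3 (1.19, adjusted p = 0.0304) of day 6. The other fits gave no call, with edgeR adjusted p from 0.0638 without day 6 replicate 2 to 0.18 without day 2 replicate 2. Day 6 ran from 1588 to 2852 CPM, around the day 4 level.

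miR-995-3p, whose seed belongs to the miR-29 family of animals, stood at 204, 247 and 235 CPM at day 2 and at 433, 375 and 388 CPM at day 4. The lowest day 4 library was well above the highest of day 2, while day 6 ran from 270 to 541 CPM. The log2 change was 0.80 (SE 0.31; edgeR adjusted p = 0.198). It passed in 2 of 11 other ways of processing, the fit of the 6 libraries alone (0.83, adjusted p = 0.0439) and DESeq2 (0.82, adjusted p = 0.0462). Of 9 fits with 1 library left out, only that without day 6 replicate 3 called it (0.80, adjusted p = 0.046). Leaving out a library of day 2 or day 4 gave edgeR adjusted p from 0.24 to 0.42.

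Other miRNAs with every day 4 library above day 2 did not pass the test in edgeR. miR-252a-3p had a log2 change of 0.55 (SE 0.24), from 59.6 to 68.4 CPM at day 2 and from 87.5 to 102 CPM at day 4. Its partner arm, miR-252-5p, had 0.21 (SE 0.15), with day 4 replicate 2 (2733 CPM) inside the day 2 range. miR-190-5p had 0.50 (SE 0.34), miR-34-5p 0.52 (SE 0.31), miR-317-3p 0.26 (SE 0.18) and miR-13a-3p 0.18 (SE 0.10). For miR-34-5p, tied to ageing of the brain in flies, the values ran from 1127 to 1410 CPM at day 2 and from 1769 to 1855 CPM at day 4, and it was called without day 6 replicate 3 (0.52, adjusted p = 0.049).

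Among the miRNAs with every day 4 library below day 2, miR-31a-5p stood at 6555, 5842 and 6225 CPM at day 2 and at 4332, 4834 and 3563 CPM at day 4. The groups were separate, and day 6 lay lower again, from 2457 to 3380 CPM. Its log2 change was -0.55 (SE 0.17; edgeR adjusted p = 0.12), and it passed in the fit of the 6 libraries alone (-0.52, adjusted p = 0.0439) and with total counts (-0.67, adjusted p = 0.0453).

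bantam-3p, which promotes growth and blocks cell death in flies, was among the most abundant miRNAs, at 96462, 66607 and 74911 CPM at day 2 and 61111, 57477 and 56124 CPM at day 4. Day 2 replicate 1 was the highest, and the groups did not overlap. The log2 change was -0.45 (SE 0.18; edgeR adjusted p = 0.205).

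miR-307-3p ran from 1836 to 3826 CPM at day 2 and from 1469 to 1830 CPM at day 4, so the groups nearly touched, with a log2 change of -0.71 (SE 0.28) that was -0.29 without day 2 replicate 3. miR-276-5p had -0.48 (SE 0.62), with a range of 1542 to 1837 CPM at day 2 and 1059 to 1379 CPM at day 4. The fit shares its spread with day 6, where miR-276-5p ran from 179 to 1656 CPM. Its abundant partner arm, miR-276-3p, reported to synchronise egg hatching in locusts, had -0.01 (SE 0.12), and day 4 (92479 to 122616 CPM) enclosed day 2 (102328 to 118924 CPM).

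**Figure D2:**
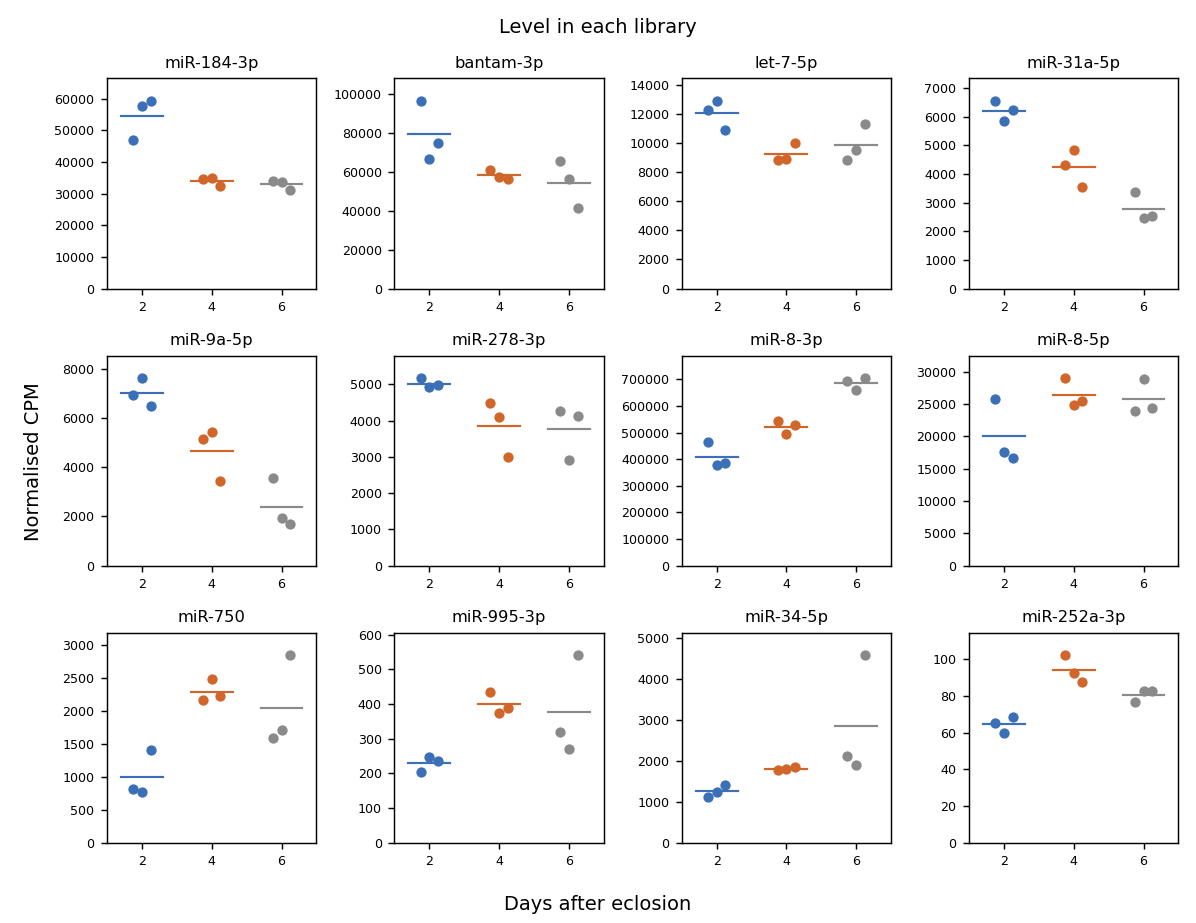
Normalised CPM of 12 miRNAs in each library (points) and the mean of each age (lines) at days 2, 4 and 6 after eclosion, on axes that start at 0. The 3 day 4 points of miR-184-3p lie between 32389 and 35008 CPM, below all day 2 points, while those of miR-750 lie between 2164 and 2487 CPM, above all day 2 points.

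The miRNAs linked to insulin signalling, lipid and energy use (miR-8, miR-14, miR-33, miR-277 and miR-278) gave 6 measured members. None passed in edgeR: 0 higher, 0 lower and 6 not called, with a median log2 change of 0.30 beside -0.03 for all miRNAs. Day 4 did not overlap day 2 for 3 of the 6, miR-8-3p and miR-33-5p above and miR-278-3p below, beside 34.9% of all 63 miRNAs. miR-33-5p, which lies in an intron of the sterol regulator SREBP in flies and mammals, stood at 339, 277 and 347 CPM at day 2 and 638, 417 and 475 CPM at day 4. All of day 4 was higher, and the log2 change was 0.67 (SE 0.74), beside a day 6 range from 60.1 to 923 CPM. miR-14-3p, which limits fat storage and cell death in flies, had 0.24 (SE 0.43), and miR-277-3p, a regulator of branched-chain amino acid breakdown in flies, -0.22 (SE 0.26).

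The miRNAs reported to target Kr-h1 in locusts are let-7 and miR-278. let-7-5p, a timer of the larval to adult transition in insects, stood at 12321, 12914 and 10926 CPM at day 2 and 8857, 8927 and 9985 CPM at day 4. miR-278-3p, a regulator of energy balance in flies, stood at 5174, 4922 and 4970 CPM at day 2 and 4489, 4104 and 2989 CPM at day 4. In both, every day 4 library was below every day 2 library, which held for 20.6% of all 63 miRNAs, and each had a log2 change of -0.38 (SE 0.13 and 0.20; edgeR adjusted p = 0.15 and 0.311). Of the 2 members 0 were called, and let-7-5p passed with total counts (-0.50, adjusted p = 0.0453) and without day 6 replicate 3 (-0.38, adjusted p = 0.049).

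The let-7 complex, in which miR-100 and miR-125 are cut from the same transcript as let-7 in many insects, had 0 of 3 members called and a median log2 change of -0.00. miR-100-5p stood at 6952, 13613 and 10396 CPM at day 2 and 11672, 11330 and 10329 CPM at day 4. miR-125-5p stood at 10833, 16431 and 13483 CPM at day 2 and 13030, 14232 and 13414 CPM at day 4. For both the day 4 values lay inside the wider day 2 range, with day 2 replicate 1 lowest and day 2 replicate 2 highest. Their log2 changes were 0.11 (SE 0.24) and -0.00 (SE 0.17), beside the -0.38 of let-7-5p; the difference between them was not tested.

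The clustered miR-71, miR-13 and miR-2, reported to target Notch during locust egg development, gave 0 called of 5 measured members and a median of -0.00. Values ran from -0.09 (miR-71-5p, SE 0.22) to 0.18 (miR-13a-3p, SE 0.10). miR-2a-3p stood at 15513, 13394 and 12060 CPM at day 2 and 14265, 14628 and 11941 CPM at day 4, and the 2 sets overlapped over most of their range. Paralogues of miR-2 share reads in these counts, so this row stands for the family and its split is uncertain. miR-13a-3p and miR-13b-3p may share reads too.

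The growth and survival miRNAs (bantam, miR-14 and miR-263a and b) had 0 of 4 members called and a median of -0.36. miR-263a-5p and miR-263b-5p, which protect sensory organs from cell death in flies, had -0.41 (SE 0.32) and -0.32 (SE 0.36). miR-263a-5p stood at 467, 693 and 646 CPM at day 2 and 396, 600 and 366 CPM at day 4, with overlap through day 4 replicate 2. The miRNAs tied to chitin and moulting in locusts (miR-71, miR-184 and miR-263a and b) had 1 of 6 members lower, miR-184-3p, beside the 1.59% over all miRNAs, and a median of -0.25. miR-184b, a minor relative named in an aphid, had -0.17 (SE 0.31), and the arms of miR-71 had -0.09 and -0.00.

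miRNAs encoded among the Hox genes had 0 of 3 measured members called and a median of -0.20. miR-10-5p stood at 723, 1129 and 825 CPM at day 2 and 731, 945 and 646 CPM at day 4, overlapping almost fully, with a log2 change of -0.20 (SE 0.33). miR-10-3p had -0.23 (SE 0.32). iab-4-5p, a regulator of Ubx in flies, was scarce, at 11.6 to 19.0 CPM at day 2 and 4.38 to 41.2 CPM at day 4 (log2 change 0.46, SE 1.17). Its day 4 libraries held 37, 5 and 55 reads, and the log2 change turned to -0.41 without day 4 replicate 3. With libraries so far apart, a log2 change of 0.46 could not be told from 0. miR-993, also on that list, reached at most 3 counts in a library.

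The miRNAs with roles in mosquito reproduction had 0 of 4 measured members called and a median of 0.20. miR-275-3p, needed for blood digestion and egg development in mosquitoes, stood at 19859, 21403 and 20566 CPM at day 2 and 21395, 22824 and 19617 CPM at day 4. These values overlapped, with a log2 change of 0.05 (SE 0.11). miR-305-5p, from the same cluster, had 0.01 (SE 0.14), so 0 of the 2 cluster members were called. miR-309 and miR-1174 held 0 counts in every day 2 and day 4 library.

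miRNAs matched by number to the miR-306, miR-79 and miR-9 cluster came to 6, of which 0 were called, with a median of -0.16. Every letter of miR-9 was taken, and whether miR-9a and miR-9e lie in that cluster in locusts was not tested. miR-9a-5p, a guard of sensory organ number in flies, stood at 6961, 7630 and 6498 CPM at day 2 and 5163, 5436 and 3445 CPM at day 4. The groups were separate, and the log2 change was -0.59 (SE 0.29; edgeR adjusted p = 0.269), with 1682 to 3548 CPM at day 6. The abundant miR-9c-5p, 25071 to 29264 CPM at day 2 and 25184 to 27996 CPM at day 4, had -0.03 (SE 0.10). miR-306-5p had -0.13 (SE 0.18), miR-9a-3p -0.26 (SE 0.43), miR-9e-5p -0.19 (SE 0.30) and miR-79-3p 0.26 (SE 0.22). The clustered miR-317, miR-34 and miR-277 had 0 of 3 called and a median of 0.26.

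**Figure D3:**
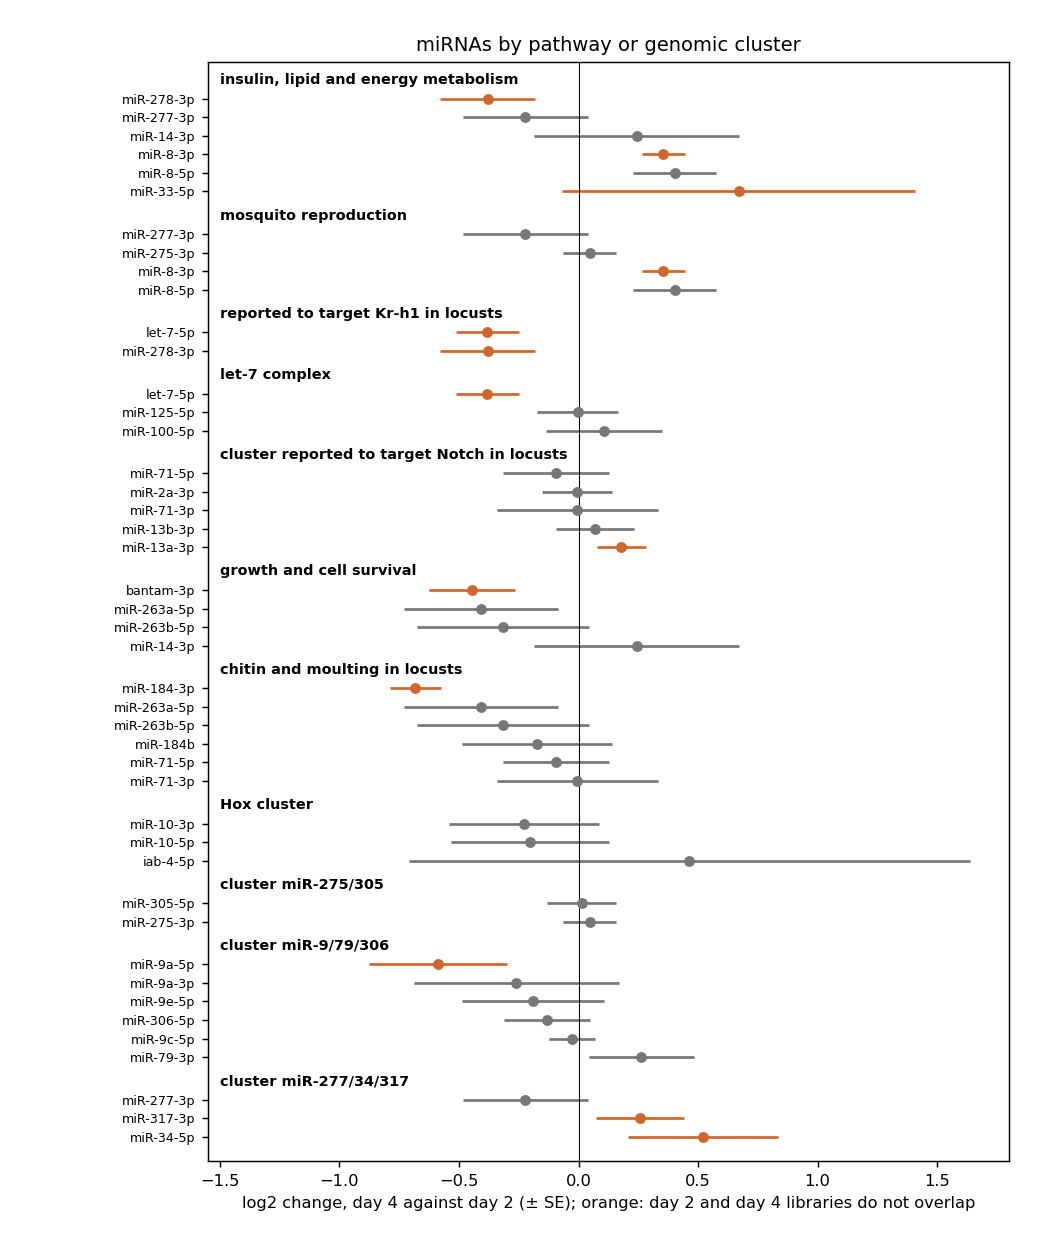
Log2 change between day 2 and day 4 (points) with its SE (bars) for the measured members of each pathway or cluster, in orange where the day 2 and day 4 libraries do not overlap. miR-184-3p is the only member past the test; the arms of miR-8 lie at 0.36 and 0.40 and the Kr-h1 regulators let-7-5p and miR-278-3p both at -0.38.

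In 9 hairpins both arms were measured, and in 8 of them the log2 changes of the arms had the same sign. The arms of miR-8 had 0.40 and 0.36, those of miR-307 -0.62 and -0.71, those of miR-281 -1.99 and -2.23 and those of miR-10 -0.20 and -0.23 (5p, then 3p). In miR-190 the 5p arm had 0.50 and the 3p arm -0.03. For miR-71, miR-276 and miR-190 an arm lies closer to 0 than the total-count median of -0.15, so its sign is not settled. That includes the 1 pair of opposite sign, miR-190. The arms of miR-10 turned to 0.074 (5p) and 0.013 (3p) without day 2 replicate 2, so their signs are not settled either. Arms of a hairpin also come from the same libraries.

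Several miRNAs are known as markers of tissues other than the fat body. miR-1-3p, the abundant miRNA of muscle, stood at 449, 954 and 647 CPM at day 2 and at 110, 40.3 and 141 CPM at day 4. Every day 4 library was far below day 2, while day 6 ran from 62.1 to 469 CPM and reached back into the day 2 range. The log2 change was -2.81 (SE 0.74; edgeR adjusted p = 0.0521). It passed in 4 of 11 other ways of processing, among them the fit of the 6 libraries alone (-2.79, adjusted p = 0.022) and DESeq2 (-2.80, adjusted p = 0.000679). Of 9 fits with 1 library left out, 2 called it, without day 6 replicate 1 (-2.77, adjusted p = 0.0201) or day 6 replicate 3 (-2.81, adjusted p = 0.049). Without any 1 of the day 2 or day 4 libraries it was not called (edgeR adjusted p from 0.0778 to 0.189), nor with a replicate block (0.102).

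miR-133-3p, the other muscle marker, stood at 31.7, 224 and 44.4 CPM at day 2 and 70.1, 30.6 and 95.8 CPM at day 4. These overlapped, and day 2 replicate 2 was the highest, with a log2 change of -0.59 (SE 0.86) that turned to 0.88 without that library. The sum of both muscle markers ran from 480 to 1177 CPM at day 2 and from 70.9 to 237 CPM at day 4. miR-1-3p made up most of that sum in each of these libraries, and 0 of 2 markers were called.

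miR-281, abundant in the gut of mosquitoes and one of the few miRNAs named in the locust, varied widely at day 2. miR-281-3p stood at 634, 443 and 116 CPM at day 2 and at 62.4, 47.3 and 144 CPM at day 4, and miR-281-5p at 409, 269 and 67.5 CPM and 50.4, 28.0 and 110 CPM. Day 2 replicate 3 lay in the day 4 range for both arms, the other day 2 libraries above it. The log2 changes were -2.23 (SE 0.87; edgeR adjusted p = 0.198) and -1.99 (SE 0.96; edgeR adjusted p = 0.269), and DESeq2 called miR-281-3p (-2.18, adjusted p = 0.0462). Leaving out day 2 replicate 1 gave -1.72 for miR-281-3p and -1.42 for miR-281-5p, and leaving out day 4 replicate 3 gave -2.86 and -2.66.

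miR-1175-3p, a gut miRNA of mosquitoes, had 0.47 (SE 0.40). The 3 measured gut and Malpighian tubule markers were both arms of miR-281 and miR-1175-3p, and 0 of them were called. Together they summed to 232 to 1083 CPM at day 2 and 134 to 326 CPM at day 4. Of the miRNAs listed for the nervous system, only miR-7-5p was measured. It stood at 512 to 708 CPM at day 2 and 528 to 687 CPM at day 4 (log2 change -0.01, SE 0.30). Whether miR-7-5p comes from nervous tissue here was not tested. miR-124 reached at most 9 counts in a library, miR-219 2 and miR-210 1. The ovary and early embryo names miR-309, miR-286, miR-3 and miR-989 held 0 counts, which allows up to 3 counts in a library. The part of muscle or gut RNA in the values of the other miRNAs was not tested.

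miR-315-5p, an activator of Wnt signalling in flies, had the largest negative value of all. It stood at 120, 69.5 and 514 CPM at day 2 and at 24.5, 9.63 and 23.2 CPM at day 4. All day 4 libraries were below day 2, and day 2 replicate 3 was far above its fellows. The log2 change was -3.60 (SE 0.82; edgeR adjusted p = 0.0521), and -3.57 (adjusted p = 0.0331) in the fit of the 6 libraries alone. Without day 2 replicate 3 it was -2.27 (adjusted p = 0.0652), smaller in size by over 1 on the log2 scale, and day 6 ran from 31.4 to 88.4 CPM. Leaving out replicate 1 (-3.91) or 2 (-3.95) of day 2 gave a call, as did leaving out replicate 1 (-3.57) or 3 (-3.59) of day 6, with adjusted p from 0.0338 to 0.046. No call came without day 6 replicate 2 (edgeR adjusted p = 0.0638) or without any 1 of the day 4 libraries (from 0.125 to 0.178). The day 4 libraries held 51, 11 and 31 reads, a mean of 19.1 CPM. The mean of 127 CPM over the 6 libraries, which met the naming rule, came mainly from day 2 (mean 235 CPM).

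**Figure D4:**
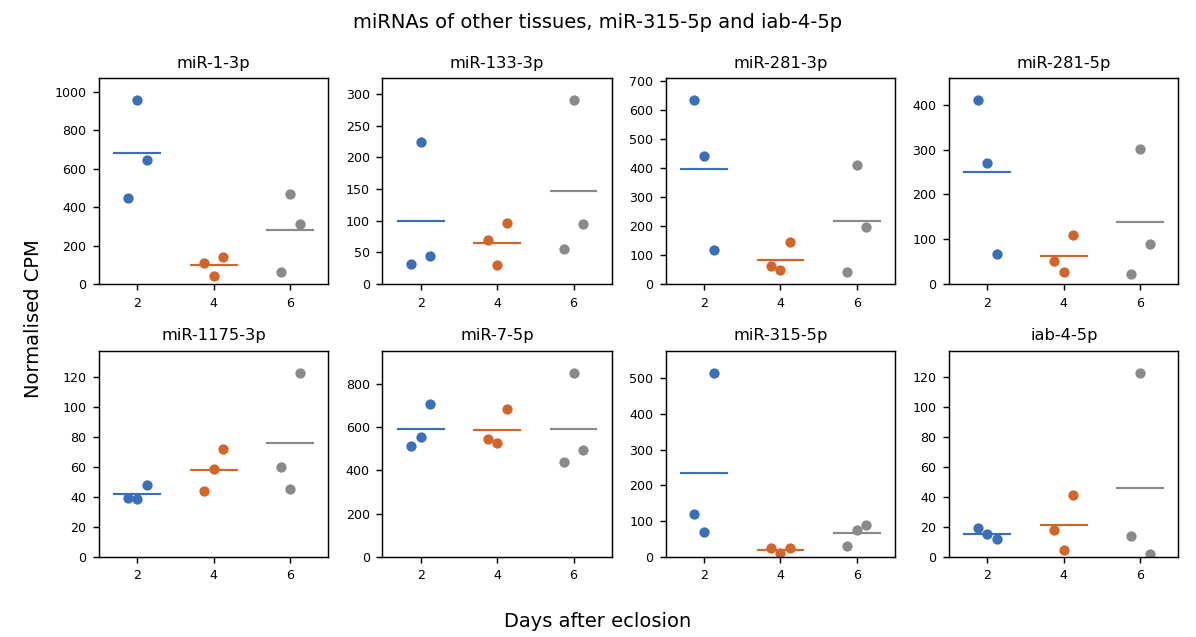
Normalised CPM of miRNAs known from muscle (miR-1-3p and miR-133-3p), gut (miR-281 and miR-1175) and the nervous system (miR-7-5p), with miR-315-5p and iab-4-5p, in each library (points) and as the mean of each age (lines). miR-1-3p lies between 40.3 and 141 CPM in the day 4 libraries and between 449 and 954 CPM in those of day 2, while miR-133-3p overlaps.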

How the data were processed

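Small RNA libraries of female fat body were compared between day 4 and day 2. RNA was extracted with TRIzol and libraries were made with Illumina's usual procedure, per the labels' protocols. The authors deposited raw read counts per mature miRNA name in a table of 26711 names; the aligner, mismatches and miRNA release were not given in these sources. Columns were assigned to samples by the names in the sample descriptions, and 0 columns belonged to no sample.

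Because reads were counted under every matching name, rows with arthropod names (30 species) and at least 90 counts over the 9 libraries of days 2, 4 and 6 were joined: 910 rows, with 300 distinct count profiles. Rows of the same miRNA number, and of the same paralogue letter or none, were merged if all libraries matched to within 25% and a further 5 counts (5% and a further 3 counts for different numbers), which left 99 groups. A group that was a constant share of a larger group of the same number, letter and arm (1 library may lie beyond 1.5-fold and beyond 2.5 SDs of counting error) was then joined to it, leaving 63. Counts are those of the row with most reads in a group, and reads shared by paralogues may have split or joined some wrongly. The rule for joining was set after the repeated counts were seen.

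Age was fitted as a factor over the 9 libraries by the quasi-likelihood functions of edgeR 4.0.16 (glmQLFit, glmQLFTest; R 4.3.3), after filterByExpr at a minimum count of 10 and scaling by TMM. A miRNA is called at a Benjamini-Hochberg adjusted p under 0.05 over the 63. The SE is the size of the log2 change divided by the square root of F. The procedure was tried on simulated counts, with planted changes all larger than that of miR-184-3p and no outlying libraries. That trial cannot tell how the test behaves for smaller changes or with such libraries. Shares of counts were compared with an exact permutation test (SciPy 1.17.1). Alternatives used DESeq2 1.42.0, limma-voom (limma 3.58.1), other scalings, filters, joinings and libraries left out. Joining ran in pandas 2.3.3 and NumPy 2.4.6 under Python 3.11.15, and plots in matplotlib 3.10.9.

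Named miRNAs were those called, the 10 largest rises and falls without overlap at a mean of at least 50 CPM (of which 9 rises existed), the 10 most abundant and the measured members of the lists, 47 in all. miR-252-5p, miR-190-3p and miR-307-5p are named beside these as partner arms, and the miRNAs under other observations were picked after their values were seen. The lists and the comparison itself were chosen with earlier results of these data known. No sequences are shown.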

Additional observations from a re-analysis of the deposited data

Results flagged for a closer look

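Joining the rows of all species left 18 groups with no arthropod name, which the comparison does not use. Each held, over days 2 and 4 together, more counts than the limit that 0 counts allow, and together they made up between 1.73% and 2.10% of a library's counts at those ages. In the fit that kept them, edgeR called 0 of the 18, and 0 had an unadjusted p under 0.05. The largest was a miR-8a-3p name of a planarian, with 12960 to 43819 counts per library at day 2 and 18119 to 38356 at day 4 (log2 change 0.08, SE 0.12). miR-2478, named in cattle, held 164 to 518 counts at day 2 and 264 to 1611 at day 4, with day 4 replicate 1 the highest (edgeR adjusted p = 0.356). The vertebrate form of miR-1 held 20, 53 and 30 counts at day 2 and 52, 11 and 43 at day 4 (log2 change -0.54, SE 0.79), beside the -2.81 of the arthropod form. The cause of these counts was not tested.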

How the results depend on the processing

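The main counts were 0 higher and 1 lower. They were 1 and 2 with RLE factors, 1 and 5 with total counts, 2 and 2 with no filter (71 tested), 3 and 4 in DESeq2, 2 and 3 in limma-voom, 3 and 4 with only the day 2 and day 4 libraries, 0 and 1 with all species joined, 2 and 6 with summed names (147 tested), 1 and 2 with the first joining step alone and 1 and 2 without the most abundant miRNA. Leaving out 1 library gave 0 to 4 higher and 0 to 4 lower, with 0 and 0 without day 4 replicate 3, 1 and 0 without day 2 replicate 3, and 4 and 4 without day 6 replicate 3; the cause was not tested. The difference in the share of miR-8-3p ran from 7.19 to 9.57 percentage points over these leave-outs. Of the 47 named miRNAs, 30 kept their sign throughout and 17 did not, and 0 of the 83 reversed values were called.

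The replicate numbers are shared by the ages, and the labels do not say whether they pair the libraries. Deviations from the age means correlated between same-numbered libraries at -0.0053, -0.146 and -0.259. Between libraries of other numbers they correlated at -0.179 to 0.283. With 3 libraries an age, these values cannot settle whether the libraries are paired. A fit with the replicate block gave 2 higher and 2 lower and turned miR-133-3p to 0.15 and miR-125-5p to 0.0038.

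Reversed log2 changes were as follows. With total counts, miR-275-3p had -0.077, miR-100-5p -0.033, miR-13b-3p -0.047 and miR-305-5p -0.10. With RLE factors, miR-2a-3p had 0.017, miR-125-5p 0.0094, miR-71-3p 0.012 and miR-7-5p 0.0047. DESeq2 gave these 0.017, 0.0095, 0.013 and 0.0051. With limma-voom, miR-125-5p had 0.050, miR-71-3p 0.019, miR-305-5p -0.014 and miR-7-5p 0.0024. With all species joined, miR-125-5p had 0.0034. For miR-276-3p, miR-9c-5p, miR-2a-3p, miR-125-5p, miR-71-3p and miR-7-5p in that order, no filter gave 0.022, 0.015, 0.036, 0.033, 0.035 and 0.032, summed names 0.058, 0.050, 0.068, 0.069, 0.086 and 0.079, the first joining step 0.047, 0.035, 0.060, 0.060, 0.059 and 0.048, and leaving out the most abundant miRNA 0.014, 0.0015, 0.023, 0.027, 0.025 and 0.021. The 6 libraries alone gave 0.0079 for miR-276-3p, 0.022 for miR-2a-3p, 0.017 for miR-125-5p, 0.019 for miR-71-3p and 0.014 for miR-7-5p. Over the leave-outs, miR-276-3p ran from -0.093 to 0.11, miR-9c-5p from -0.080 to 0.046, miR-275-3p from -0.0073 to 0.15, miR-2a-3p from -0.060 to 0.097, miR-100-5p from -0.11 to 0.43, miR-125-5p from -0.14 to 0.23, miR-71-5p from -0.17 to 0.13, miR-71-3p from -0.067 to 0.21, miR-263b-5p from -0.58 to 0.071, miR-184b from -0.28 to 0.094, miR-10-3p from -0.39 to 0.013, miR-10-5p from -0.37 to 0.074, iab-4-5p from -0.41 to 0.93, miR-305-5p from -0.073 to 0.14, miR-133-3p from -1.02 to 0.88 and miR-7-5p from -0.14 to 0.17. With 3 libraries an age, and 692899 counts in the shallowest of those compared, miRNAs under about 50 CPM rest on few reads.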

Other observations

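Several scarce miRNAs outside the naming rule, chosen after their values were seen, did not pass edgeR's test. miR-92a-3p stood at 26.2, 42.2 and 24.0 CPM at day 2 and at 15.4, 18.4 and 16.5 CPM at day 4, and the groups did not overlap (log2 change -0.87, SE 0.40). miR-282-5p ran from 39.7 to 57.0 CPM at day 2 and from 23.9 to 36.5 CPM at day 4, again without overlap (-0.66, SE 0.48), and from 5.84 to 28.7 CPM at day 6. miR-316-5p had a log2 change of -1.38 (SE 0.84) with 11.2 to 38.2 CPM at day 2 and 5.76 to 11.4 CPM at day 4, which overlapped.

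miR-1000-5p had the second largest positive log2 change, 0.90 (SE 0.67), with 13.1, 28.6 and 34.7 CPM at day 2 and 19.2, 50.8 and 71.1 CPM at day 4, which overlapped. miR-2765-5p ran from 1424 to 2495 CPM at day 2 and from 1608 to 3188 CPM at day 4 (0.30, SE 0.38). miR-279d-3p, at 14094, 10053 and 10765 CPM at day 2, held 13218, 13456 and 13203 CPM at day 4 (0.19, SE 0.16), so its day 4 libraries agreed closely inside a wider day 2 range. miR-965-3p ran from 94.4 to 107 CPM at day 2 and 80.8 to 101 CPM at day 4 (-0.15, SE 0.46), and reached 380 CPM at day 6.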
